A study of Mus musculus with 7 samples.

Results

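Deptor, which encodes an inhibitor of the mTOR kinase, was examined together with the core genes of the mTOR complexes and of the switch that controls them. The 10 genes are Deptor, Mtor, Rptor, Rictor, Mlst8, Akt1s1, Ddit4, Tsc1, Tsc2 and Rheb. Deptor was chosen because its signal differed between HM-1-shSnail and HM-1-control cells, and the other genes were chosen for their function. A gene was read from the transcript cluster that carries its symbol and no other, a transcript cluster being the unit of the array that stands for 1 locus. Of the 10 genes, 9 had such a cluster, each exactly 1, among 65770 clusters on the array. Akt1s1, which encodes the mTORC1 inhibitor PRAS40, shares its only cluster with Mir707 and was therefore not measured here.

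The cells studied were HM-1, a line derived from an ovarian tumour of the mouse. All of them carried a GIPZ lentiviral hairpin, which was non-silencing in HM-1-control and directed against Snai1, the gene of the transcriptional repressor Snail, in HM-1-shSnail. RNA of cultured cells was read on 7 GeneChip arrays that cover the mouse transcriptome, of which 3 were control, 2 carried the hairpin sh1 and 2 the hairpin sh2. The arrays of a group are called biological replicates, but no source used here says that a hairpin was introduced more than once, so the p-values measure the spread between these samples, which may be technical.

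mTOR is a protein kinase that works in a pair of complexes. mTORC1, built on Raptor, promotes protein synthesis and restrains autophagy when nutrients and growth factors are plentiful, and mTORC2, built on Rictor, phosphorylates AKT and related kinases. mLST8 and DEPTOR belong to both complexes. DEPTOR binds mTOR and inhibits it, is broken down after growth factor stimulation, and is known to be low in many tumours and high in a subset of multiple myelomas. On lysosomes mTORC1 is switched on by the GTPase Rheb, which the TSC1-TSC2 complex keeps inactive.

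The target sequences of the hairpins are shown because sh1 and sh2 are separate hairpins against the same gene. Capitals mark the longest run of bases that the sequences share.
sh1: agTTTATtgatattcaata
sh2: tggttaaTTTATatactaa
Both targets are 19 bases long with 16 A or T bases. The shared run has 5 bases, and when the targets are laid side by side from the 5′ end 7 of 19 positions hold the same base. The targeted gene lies on mouse chromosome 2, and the position of the targets within it was not determined here.

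Deptor signal was higher on every array of shSnail cells than on any array of control cells. Values are log2 signals, so that a difference of 1 is a 2-fold change. The control arrays read 10.36, 10.32 and 10.50. The sh1 arrays read 11.78 and 11.93, and the sh2 arrays read 12.06 and 11.96. The lowest shSnail value thus lay well above the highest control value, and the groups did not overlap. Control arrays averaged 10.39 ± 0.10 (SD, n = 3), whereas shSnail arrays averaged 11.93 ± 0.12 (SD, n = 4), a difference of 1.54 (SE 0.08), or 2.91-fold. Since Deptor was selected on this very contrast, the difference is given as a description, and no test of it is reported. It was the 19th highest difference among the 65770 clusters, of which 0.21% passed the test as higher in shSnail (adjusted p under 0.05), and nothing is read from that share. Each hairpin gave a similar size, with 1.46 (SE 0.08, 2.75-fold) for sh1 and 1.62 (SE 0.08, 3.07-fold) for sh2, both against the same control arrays. The mean signal of Deptor lay above 98.9% of the negative control probes. All 7 values were distinct.

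Gm11902, a Deptor pseudogene by the study's annotation, gave the same pattern. A pseudogene is a copy of a gene that is not known to give a working protein, and a cluster for such a copy can pick up transcripts of the parent gene. The control arrays read 8.45, 8.50 and 8.49 for Gm11902. The sh1 arrays read 9.72 and 9.89, and the sh2 arrays read 9.88 and 9.81. These groups did not overlap either, and the difference was 1.34 (SE 0.05), or 2.54-fold. After each gene was centred on its own mean, the root-mean-square difference between Gm11902 and Deptor was 0.12 over the 7 arrays. The sequences and probes of the pair were not compared here, and how much of either signal stems from the other locus was not tested, so Gm11902 is not counted as a separate observation.

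**Figure D1:**
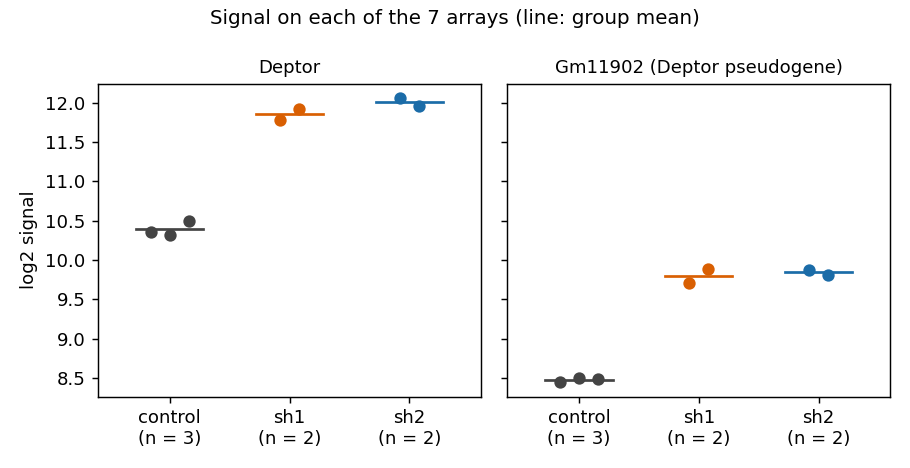
Log2 signal of Deptor (left) and of its pseudogene Gm11902 (right) on each array, with points for single arrays and lines for group means of control (n = 3), sh1 (n = 2) and sh2 (n = 2). In both panels the 4 shSnail arrays lie above all control arrays, for Deptor at 11.78 to 12.06 against 10.32 to 10.50.

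The hairpins were also compared with each other. For Deptor, sh2 exceeded sh1 by 0.16 (SE 0.09), against a difference from control of 1.46 or more for each hairpin. For Gm11902 the difference between hairpins was 0.05. These 2 values are descriptions without a test, because a choice by the contrast of shSnail with control favours genes with little spread among the shSnail arrays. Of the other 8 measured genes, 0 differed between the hairpins at an adjusted p under 0.05 and 0 at an unadjusted p under 0.05 (limma, Benjamini-Hochberg over all clusters). Among all clusters 0% passed at the adjusted threshold and 6.01% at the unadjusted one.

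Among the other 8 measured genes, none passed the test between shSnail and control with limma, and all differences were within 0.10 of 0 on the log2 scale. Of all clusters, 0.642% passed this test. At an unadjusted p under 0.05, 1 of the 8 (Rictor) differed, against 10.1% of all clusters. In none of the 8 did the arrays of shSnail all lie on one side of the control arrays, a pattern that 9.09% of all clusters showed. Their median difference was 0.01, beside 0.00 over all clusters.

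The kinase and the subunits of its complexes are described first. Mtor, the catalytic subunit of both complexes, read 9.16, 9.10 and 9.05 in control, 9.16 and 9.16 with sh1, and 9.18 and 9.26 with sh2. The sh2 values were the highest, and the sh1 values equalled the highest control value. The difference between shSnail and control was 0.09 (SE 0.04, 95% interval from -0.00 to 0.18, adjusted p = 0.511 by limma).

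Rptor encodes Raptor, the scaffold that presents substrates to mTORC1. Its control arrays read 9.80, 9.76 and 9.76, the sh1 arrays 9.76 and 9.76, and the sh2 arrays 9.76 and 9.81. The values covered 0.05 in all, and the groups overlapped. The difference was -0.00 (SE 0.02, 95% interval from -0.04 to 0.04, adjusted p = 1 by limma).

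Rictor encodes the scaffold of mTORC2. Its control arrays read 11.54, 11.60 and 11.53, the sh1 arrays 11.47 and 11.48, and the sh2 arrays 11.53 and 11.49. No shSnail reading exceeded a control reading, but the lowest control reading and the highest sh2 reading were equal. The difference was -0.07 (SE 0.02, 95% interval from -0.13 to -0.01), with an unadjusted p of 0.035 and an adjusted p of 0.468 by limma.

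Mlst8 encodes a subunit of both complexes that stabilises the kinase domain. Its control arrays read 9.19, 9.12 and 9.19, the sh1 arrays 9.19 and 9.17, and the sh2 arrays 9.19 and 9.51. A single array, sh2 replicate 2, stood above the rest. The difference of 0.10 (SE 0.09, 95% interval from -0.13 to 0.33, adjusted p = 0.683 by limma) fell to 0.02 without that array. With sh2 replicate 1 left out instead, the lone remaining sh2 array, assumed to vary like the others, differed from control by 0.34 with an adjusted p of 0.031 and from sh1 by 0.33 with an adjusted p of 0.0487, in fits where 5.51% and 3.16% of all clusters passed.

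**Figure D2:**
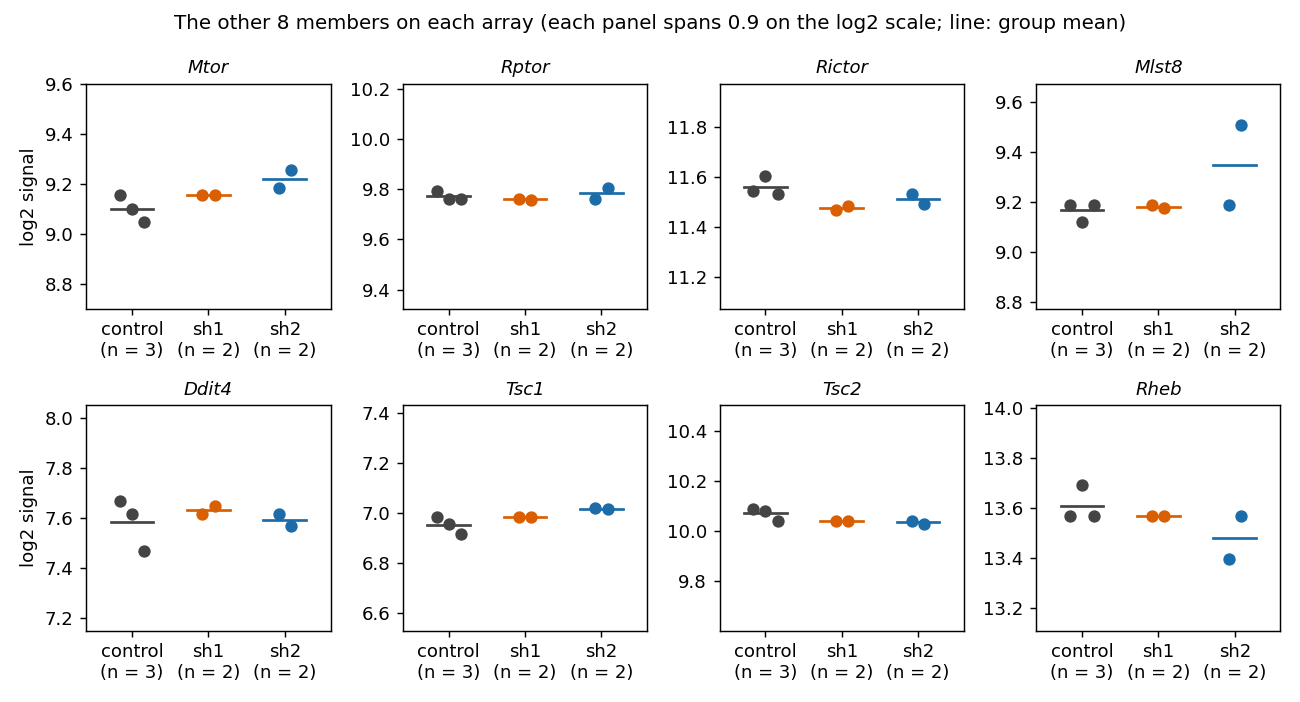
Log2 signal of the 8 measured genes other than Deptor on each array, with panels of equal height on the log2 scale, points for single arrays and lines for group means. In every panel the 4 shSnail arrays together overlap or touch the range of the 3 control arrays, although single hairpins can lie outside it, as sh2 does for Mtor and Tsc1 and sh1 for Rictor, and the Mlst8 reading of 9.51 on sh2 replicate 2 stands apart from the others at 9.12 to 9.19.

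The switch upstream of mTORC1 comes next. Tsc1 encodes hamartin, which holds the TSC complex together. Its signals were 6.98, 6.96 and 6.92 in control, 6.98 and 6.98 with sh1, and 7.02 and 7.01 with sh2, with a difference of 0.05 (SE 0.02, adjusted p = 0.501 by limma). These are dim values, above 88.7% of the negative controls and under their 95th percentile of 7.97, so a change of the transcript may not be visible at this cluster.

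Tsc2 encodes tuberin, the subunit that makes Rheb hydrolyse its GTP. Its control arrays read 10.09, 10.08 and 10.04, the sh1 arrays 10.04 and 10.04, and the sh2 arrays 10.04 and 10.03. The readings of shSnail were at or under the lowest control reading. The difference was -0.03 (SE 0.01, 95% interval from -0.07 to 0.00, adjusted p = 0.514 by limma).

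Rheb, the GTPase that activates mTORC1, read 13.57, 13.69 and 13.57 in control, 13.57 and 13.57 with sh1, and 13.40 and 13.57 with sh2. Equal readings made up 5 of the 7, with 1 control array above and 1 sh2 array below them. The difference was -0.09 (SE 0.06, 95% interval from -0.23 to 0.06, adjusted p = 0.632 by limma).

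Ddit4 encodes REDD1, a stress-induced inhibitor that acts on mTORC1 through the TSC complex. Its control arrays read 7.67, 7.62 and 7.47, the sh1 arrays 7.62 and 7.65, and the sh2 arrays 7.62 and 7.57. All shSnail readings fell within the range of the control arrays. The difference was 0.03 (SE 0.05, 95% interval from -0.10 to 0.15, adjusted p = 0.837 by limma), at a signal above 93.7% of the negative controls and under their 95th percentile.

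**Figure D3:**
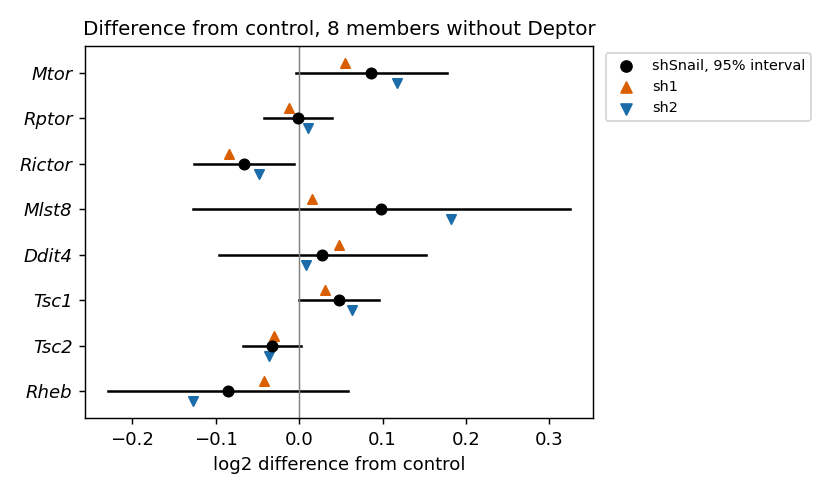
Log2 difference from control for the 8 measured genes other than Deptor, with black points and bars for shSnail and its 95% interval, upward triangles for sh1 alone and downward triangles for sh2 alone. All shSnail points lie between -0.09 and 0.10, and the bar of Rictor alone lies wholly on one side of 0.

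Taken one hairpin at a time, 0 of the 8 genes passed the test for sh1 with limma (lowest adjusted p 0.559, and 1 at an unadjusted p under 0.05), where 0.134% of all clusters passed and 7.33% did so unadjusted. For sh2 0 of the 8 passed as well (lowest adjusted p 0.394 for Mtor, and 2 at an unadjusted p under 0.05), where 1.29% of all clusters passed and 10.7% did so unadjusted. On centring by negative controls 7 of the 8 passed as lower for sh2, but so did 77.5% of all clusters in either direction, so that count is not about these genes. The differences in size from control reached 0.08 for sh1 and 0.18 for sh2, the latter in Mlst8. Both sets of differences rest on the same control arrays.

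The way the values were deposited limits small differences. In 79.9% of all clusters at least 2 of the 7 readings are equal, and in 38.7% at least 4 are. Among the 8 genes the number of equal readings ran from 2 in Rictor to 5 in Rheb. The median of the negative controls was 4.83 to 4.86 on control arrays, 4.92 and 4.99 on sh1 arrays, and 5.12 and 5.20 on sh2 arrays, while the median of all clusters stayed within 4.51 to 4.56. Centring each array on its negative controls takes the same amount from all its clusters, so every difference between shSnail and control shifted alike, by -0.21. By this shift alone the differences of Mtor (-0.12), Mlst8 (-0.11), Tsc1 (-0.16) and Ddit4 (-0.18) became negative. The Deptor difference was then 1.33. The part of the negative controls in these results was not tested.

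As checks of the samples, Snai1 and cell type markers were read. Snai1 signal was 6.61 to 6.70 in control and 6.55 to 6.80 in shSnail (difference 0.03, SE 0.07, adjusted p = 0.852 by limma), above only 85.6% of the negative controls, so this array does not check the knockdown. Of the epithelial markers Krt8, Krt18 and Krt19 were bright and the other 5 of 8, Epcam and Cdh1 among them, lay under the 95th percentile of negative controls. Of the mesenchymal markers 3 of 4 were bright. None of 6 leukocyte, 4 endothelial, 4 fibroblast or 4 mesothelial or ovarian markers measured exceeded that percentile. No marker passed the test between shSnail and control, and the largest differences were those of Fn1 (1.14, adjusted p = 0.117 by limma) and of the dim endothelial marker Cdh5 (0.98, adjusted p = 0.118 by limma).

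Beyond the core genes, 112 genes of the pathway were listed by role, of which 99 were measured and 64 had a mean above the 95th percentile of negative controls. With limma, 0 of the 99 were lower and 0 higher in shSnail at an adjusted p under 0.05, where 0.432% of all clusters were lower and 0.21% higher. Without adjustment, 13 had a negative and 10 a positive difference at p under 0.05. That share is above the 10.1% of all clusters, but among clusters above the 95th percentile it was 28.9% overall and 28.1% for the 64 pathway genes (18). Of the 35 dimmer pathway genes 5 (14.3%) had an unadjusted p under 0.05, against 6.31% of all dimmer clusters. The median difference was 0.00, and single differences ran from -0.79 to 0.44.

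**Figure D4:**
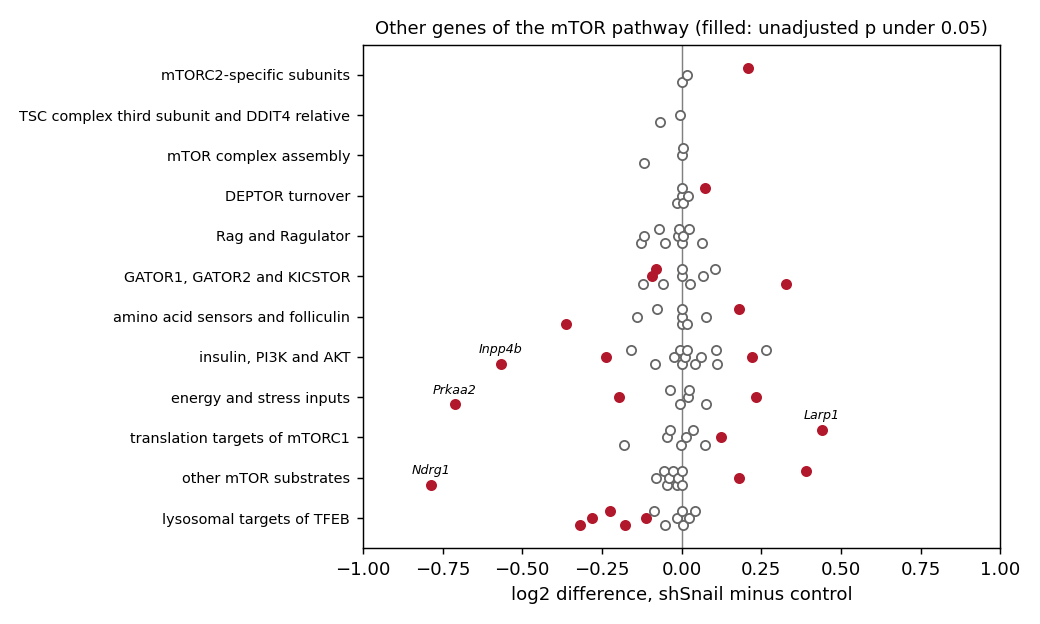
Log2 difference between shSnail and control for the 99 measured pathway genes, 1 point a gene, grouped in rows by role, with filled points for an unadjusted p under 0.05. Most points lie near 0, and the named genes Ndrg1 (-0.79), Prkaa2 (-0.71), Inpp4b (-0.57) and Larp1 (0.44) lie farthest out.

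The pathway genes nearest to the threshold had been listed under translation targets of mTORC1, other mTOR output, energy input or lysosomal genes. These roles are those of the lists, and mTOR activity was not measured. Larp1 encodes a protein that binds the mRNAs of ribosomal proteins and is a target of mTORC1. It read 13.17, 13.01 and 13.22 in control, 13.56 and 13.58 with sh1, and 13.51 and 13.64 with sh2. All shSnail readings lay above all control readings, by 0.44 on average (SE 0.06), with an adjusted p of 0.0502 by limma, just outside the threshold. The difference was 0.44 for either hairpin.

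Ndrg1 encodes a protein phosphorylated by SGK1, a kinase that mTORC2 activates. It read 11.43, 11.53 and 11.27 in control, 10.68 and 10.54 with sh1, and 10.84 and 10.44 with sh2. All shSnail readings lay under all control readings, with a difference of -0.79 (SE 0.11, adjusted p = 0.0664 by limma). Prkaa2, a catalytic subunit of the energy sensor AMPK, gave -0.71 (SE 0.10, adjusted p = 0.0633 by limma) at a dim signal above 81.1% of the negative controls. Lamp2, a structural protein of the lysosomal membrane, gave -0.28 (SE 0.04, adjusted p = 0.0655 by limma), with control readings of 14.44 to 14.57 and shSnail readings of 14.17 to 14.27.

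These 4 genes passed under some other treatments of the same values and not under others. None of them passed with separate groups, the replicate block, the other variance model, the study's threshold or any array left out. With array weights only Larp1 passed. With clusters restricted to those above the 40th percentile of signal, Larp1 passed as higher and Ndrg1, Prkaa2 and Lamp2 as lower. In that setting 1.57% of the clusters tested passed, fewer clusters share the adjustment, and the differences themselves are the same.

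Among the 12 measured lysosomal targets of the transcription factor TFEB, which mTORC1 keeps out of the nucleus, 0 passed the test. At an unadjusted p under 0.05, 5 were lower (Ctsb, Lamp2, Hexa, Atp6v0d1 and Sqstm1) and 0 higher, where 4.65% of all clusters and 11.4% of those above the 95th percentile of negative controls were lower. The median difference was -0.07, beside 0.00 over all clusters, and no test of the list was made. Hexa, a subunit of a lysosomal hexosaminidase, had the largest difference at -0.32 (adjusted p = 0.458 by limma). In the remaining roles of mTOR output, Lpin1, an mTORC1 substrate in lipid metabolism, gave 0.39 (adjusted p = 0.341 by limma). Its signal was dim, above 91.8% of the negative controls and under their 95th percentile. Maf1, a repressor of RNA polymerase III, gave -0.18 (adjusted p = 0.504 by limma).

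The growth factor arm held 15 measured genes of 17 listed, with 0 past the test. Inpp4b, a lipid phosphatase that limits PI3K signalling, read 8.53, 8.56 and 8.43 in control, 8.06 and 8.03 with sh1, and 7.68 and 7.98 with sh2. The groups did not overlap, and the difference was -0.57 (SE 0.10, adjusted p = 0.117 by limma). Irs2, an adaptor of the insulin receptor, gave 0.27 (adjusted p = 0.505). In the energy and stress list, Stk11, the kinase upstream of AMPK, gave 0.23 (adjusted p = 0.401).

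The nutrient arm likewise had 0 genes past the test. In the Rag and Ragulator list all 10 genes were measured, and the largest differences were those of Slc38a9 (-0.13), a lysosomal arginine sensor, and Rraga (-0.12), a Rag GTPase. In the GATOR and KICSTOR list 10 of 12 were measured, led by Itfg2 (0.33, adjusted p = 0.492) and Nprl2 (-0.12). Among the 9 amino acid sensors and folliculin genes, Sesn3, a sestrin, gave -0.36 (adjusted p = 0.357) and Bmt2, a sensor of S-adenosylmethionine, gave 0.18 (adjusted p = 0.416), all by limma. Slc38a9, Itfg2 and Sesn3 were dim, above 82.4%, 90.6% and 92.1% of the negative controls and under their 95th percentile.

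The machinery that removes DEPTOR was read with special regard to Deptor. Its protein is marked by casein kinase 1 and taken up for degradation by the ubiquitin ligase that contains βTrCP, while OTUB1 and USP13 can remove ubiquitin. Of the 8 genes listed 6 were measured, 0 passed the test, and differences ran from -0.02 to 0.07. Btrc, which encodes 1 form of βTrCP, had the same reading of 7.82 on all 7 arrays, and Usp13 one of 4.10. All 7 readings were equal in 4.59% of all clusters. Both genes lay under the 95th percentile of negative controls, so a change of the transcript may not be visible at these clusters. Fbxw11, which encodes the other form of βTrCP, gave -0.02. Csnk1a1, a casein kinase 1, had 6 equal readings of 12.15. Otub1 gave the largest difference of the list at 0.07 (adjusted p = 0.492 by limma), followed by Cul1, the scaffold of the ligase, at 0.02.

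Factors that build the complexes and their accessory subunits also had 0 genes past the test. Prr5, an accessory subunit of mTORC2, gave 0.21 (adjusted p = 0.194 by limma) at a dim signal above 77.3% of the negative controls, and Mapkap1, a core subunit of mTORC2, gave 0.02. Tti1, which helps fold and assemble mTOR with Telo2, gave -0.12, and Telo2 itself 0.01. Tbc1d7, the third subunit of the TSC complex, gave -0.07, and the Ddit4 relative Ddit4l gave -0.00. Telo2 and Ddit4l were dim, above 78.1% and 25.3% of the negative controls, so a change of these transcripts may not be visible.

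The genes whose readings followed Deptor most closely were then found among 8302 clusters with 1 symbol and a control signal above the 95th percentile of negative controls. Likeness was the root-mean-square difference from Deptor over the 7 arrays after centring each gene. Crim1, a transmembrane protein that binds bone morphogenetic proteins, came first at 0.12 with a difference between shSnail and control of 1.61 (3.06-fold). It read 10.73, 10.71 and 10.69 in control, 12.37 and 12.14 with sh1, and 12.44 and 12.33 with sh2. Iqgap2, a scaffold protein, followed at 0.16 (difference 1.47, 2.77-fold). Atp1b1, a subunit of the sodium-potassium pump, stood at 0.18 (difference 1.28, 2.43-fold). Tnfrsf21, also called death receptor 6, stood at 0.20 (difference 1.15, 2.22-fold), and Scd1, a fatty acid desaturase, at 0.20 (difference 1.43, 2.69-fold). Because likeness to Deptor selects for the same contrast, these differences are descriptions without a test. Scd1 was the most variable of them, with 9.29 to 9.79 in control and 10.74 to 11.43 in shSnail. The other 8 measured core genes could not be among these 5, since their differences from control were within 0.10 of 0. Tsc1 and Ddit4 were also under the signal limit for candidates.

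The neighbours of Deptor on chromosome 15 were read to see whether the locus moved as a block. The nearest 5 protein-coding genes on each side were taken from RefSeq, after values had been seen, and 9 of the 10 were measured, Enpp2 being the exception. None was higher in shSnail by the test. The genes next to it on either side, Dscc1, a sister chromatid cohesion factor, and Col14a1, a fibril-associated collagen, gave -0.24 (adjusted p = 0.244 by limma) and -0.00. Col14a1 was dim, above only 25.6% of the negative controls, so a change of the transcript may not be visible at this cluster. Taf2, a subunit of the general transcription factor TFIID, gave -0.24 (adjusted p = 0.117 by limma). In Dscc1, Taf2 and Ccn3 all shSnail readings lay under all control readings. Among all clusters 9.09% had the groups apart in either direction, and whether the neighbours differ from that share was not tested. Mrpl13 and Mtbp gave 0.01 and -0.06. The dim clusters Has2, Mal2 and Sntb1, all under the 95th percentile of negative controls, gave -0.08, -0.00 and 0.00.

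Ccn3, a secreted matricellular protein, was lower in shSnail, as the study lists from these same arrays under the symbol Nov. It read 6.81, 6.65 and 6.49 in control, 5.67 and 5.61 with sh1, and 5.43 and 5.66 with sh2, a difference of -1.06 (SE 0.09, adjusted p = 0.0178 by limma) at a dim signal above 75.8% of the negative controls. The call was lost without control replicate 1 (adjusted p = 0.0695), control replicate 2 (0.0941), sh1 replicate 1 (0.0749), sh1 replicate 2 (0.0764) or sh2 replicate 2 (0.0657), each by limma on the remaining arrays, while the difference stayed between -1.14 and -0.98.

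**Figure D5:**
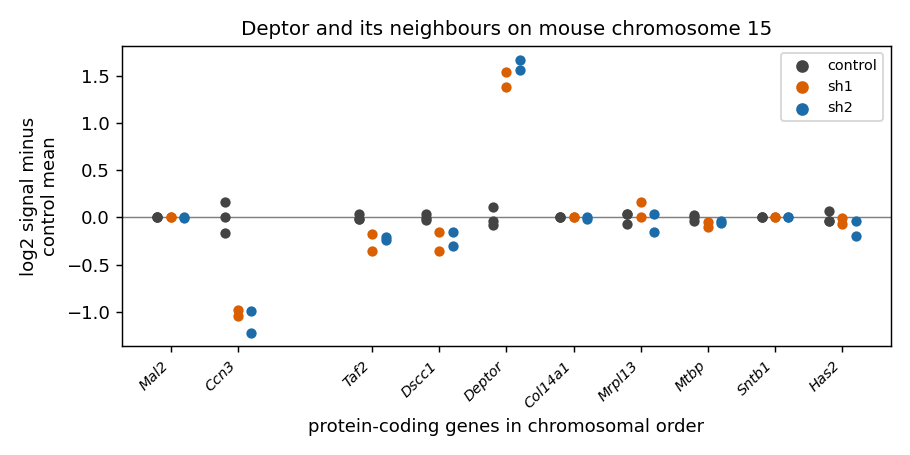
Log2 signal minus the control mean for Deptor and its measured neighbours in the order of the genes on chromosome 15, with points for single arrays of control, sh1 and sh2. The shSnail points of Deptor stand above 0, those of Ccn3 stand near -1.06, those of Taf2 and Dscc1 lie below their control points by 0.24 on average, and those of the remaining neighbours stay within 0.08 of 0 on average. Ccn3, Col14a1, Has2, Mal2 and Sntb1 are dim clusters, under the 95th percentile of negative controls.

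Snail binds the E-box CAGGTG, whose reverse complement is CACCTG. In promoter windows of RefSeq (assembly GRCm38.p6, 250 bases before to 50 after the start of a gene, searched on both strands), 0 of the 9 genes with a window held this motif, against 20.2% of all 32851 windows. The 9 genes are the listed 10 without Deptor, which had no window and was not assessed. The study's own definition of a Snail site is broader, and its promoter constructs are longer. The count is a description of these windows and this motif only.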

How the data were processed

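The authors hybridised total RNA to Affymetrix GeneChip Mouse Transcriptome Array 1.0 and deposited log2 signal values for 7 arrays, made per the labels with Affymetrix Expression Console. Versions, probe summary and genome build were not stated in what was read here. Of 72688 entries, 65770 transcript clusters were tested and 5222 negative controls served as background. Symbols came from the platform annotation, and all value columns were used (0 unused). The log2 values entered the tests as deposited. Fits used limma 3.58.1 (lmFit, eBayes) in R 4.3.3, two-sided, with p-values adjusted by Benjamini-Hochberg across every cluster and called under 0.05. shSnail (sh1 and sh2, n = 4) was compared with control (n = 3), and the hairpins with control and each other in a fit of 3 groups. Precision is limited by the number of arrays. The scripts were tested on simulated data. Genes and lists were chosen with earlier results of these data known. Named were the 10 genes, pathway genes past the test or otherwise the 2 of each list with the largest absolute difference, the 5 most like Deptor, and Snai1; others were chosen after their values were seen. Alternatives covered normalization, centring, filters, the replicate block, the variance model, weights, the study's threshold and left-out arrays.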

Additional observations from a re-analysis of the deposited data

Results flagged for a closer look

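For 4 of the genes, a single shSnail array stood apart from the remaining 3 relative to the range, though for Rptor and Tsc2 the gap itself was small. The measure is the gap to the nearest other array as a share of the whole range. It was set against Dixon's 95% critical value, meant to be exceeded by chance in about 1 of 20 groups. That rate need not hold here, since the arrays pool both hairpins and hold equal readings. The share of all clusters flagged in this way is not given, so nothing is read from the count. For Mlst8 the share was 0.957, with 9.51 on sh2 replicate 2 against 9.17 to 9.19 on the others. For Rptor it was 0.931, with 9.81 on sh2 replicate 2 against 9.76 on the others. For Tsc2 it was 0.938, with 10.03 on sh2 replicate 2 against 10.04 on the others. For Rheb it was 1.000, with 13.40 on sh2 replicate 1 against 13.57 on each of the others. Equal readings make the remaining range small, and their part in these shares was not tested. Deptor showed no such array.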

How the results depend on the processing

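The count of the other 8 genes past the test between shSnail and control, and between sh1 and control, was 0 under every alternative run. For sh2 against control it was 0 except on centring by negative controls, where 7 were lower (all but Mlst8) and 77.5% of all clusters passed, and without sh2 replicate 1 (0 to 1 over the left-out arrays). For sh2 against sh1 it was 0 except on that centring, where Tsc2 and Rheb made 2 and 38.3% of all clusters passed, and without sh2 replicate 1 (0 to 1). The pathway count of 0 became 4 with the filter at the 40th percentile (1.57% of all clusters passed), 4 with clusters of 1 symbol only (1.67%), 6 with quantile normalization, adding Pik3r1 and Inpp4b (1.29%), 4 on centring by the median cluster (0.926%), 13, all lower, on centring by negative controls (7.16%), and 1, Larp1, with array weights (0.698%). It was 0 to 0 over the left-out arrays. The Deptor difference was 1.33 on centring by negative controls and 1.495 to 1.594 over the left-out arrays. Centring by negative controls turned Mtor to -0.12, Mlst8 to -0.11, Tsc1 to -0.16 and Ddit4 to -0.18. Ddit4 was -0.0296 with the replicate block and -0.0306 with quantile normalization, and -0.0296 to 0.0696 over the left-out arrays. Rptor was 0.0052 on centring by the median cluster and -0.0121 to 0.0100 over the left-out arrays. Ccn3, whose alternatives were chosen after seeing the data, lost its call with the replicate block (-1.14, adjusted p = 0.135 by limma). Between the hairpins, same-numbered arrays gave an r of 0.16. This is a single value for both numbers, since the deviations of 2 arrays from their mean mirror each other. To control, r was -0.07 to -0.21. Such values cannot decide whether the numbers are pairs, so they are not taken as pairs, and the replicate block called 0 of the 8 genes. In all, 210 values kept direction and side of the threshold, 6 lost the call, 11 moved and 12 turned sign. The cause was not tested.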
